A study of Mus musculus with 56 samples.

Results

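The comparison is between OVA-specific memory CD8 T cells that carried PD1 and CD73 after pregnancy and the memory cells of sensitized mice that were never pregnant. The cells are fetus- and graft-specific T cells (TFGS), CD8 T cells that bind a tetramer of an OVA peptide on H-2Kb. The post-partum group, S+P C5, is the PD1+CD73+ gate of TFGS from mice that were sensitized and then had a pregnancy. The other group, Sensitized, is all TFGS of mice that were sensitized only. Members were taken by group label, and technical libraries of a replicate were summed. This gave 6 S+P C5 samples from 10 libraries and 4 Sensitized samples from 8 libraries, that is 10 of the 30 samples and 18 of the 56 libraries of the series. The labels number 6 S+P C5 replicates, but the study's legend for this sort gives fewer than 6 per group. Whether each of the 6 was a separate mouse is not stated, and the tests treat them as separate.

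PD-1, encoded by *Pdcd1*, is an inhibitory receptor that dampens T cell receptor signalling. CD73, encoded by *Nt5e*, is a surface enzyme that makes adenosine, which restrains T cells. After lasting contact with antigen, CD8 T cells can enter an exhausted state, in which the nuclear factor TOX is retained, several inhibitory receptors stay on the surface and receptors for homeostatic cytokines such as IL-7 are lost.

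All mice were C57BL/6 females bought at 8 to 12 weeks of age, and all mice of both groups had rejected a skin graft from 2W-OVA.BALB/c mice, which express the 2W-OVA model antigen throughout the body. Sensitized TFGS were taken at day 30 or later after grafting, with no mating. S+P mice were put with 2W-OVA.BALB/c males for mating from day 30 after grafting, and their TFGS were taken at post-partum day 0 to 3. The cells came from pooled spleen and lymph nodes, and 200 cells were sorted per library. Sensitized cells were not sorted on PD1 or CD73, so pregnancy, the gate and the time since grafting cannot be told apart in this comparison. The mice were sorted in 2 independent experiments, and the labels do not say which mouse belonged to which. In samples of this kind, fewer cells of a type and less RNA per cell cannot be told apart.

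Depth was 17188587 to 50266661 counts per S+P C5 sample and 20623004 to 54809406 per Sensitized sample, with 12416 to 17338 and 15045 to 17199 genes detected. The rRNA gene *Rn18s-rs5* took 4.80% to 25.3% of the counts in S+P C5 and 8.08% to 18.7% in Sensitized. S+P C5 replicates 2 and 3 had 1 library each and the fewest genes of the 10 samples, 12416 and 12652. Across genes, the libraries of 1 sample correlated with Pearson's r between 0.617 and 0.903. Values below are CPM, a gene's counts relative to the library size, which was scaled with TMM factors. A gene is called at the floor of a group when none of the group's samples has over 3 counts of it, and this limit averages 0.0966 CPM in S+P C5 and 0.0932 CPM in Sensitized. Floors and intervals cover counting error alone, because PCR copies of 1 molecule are counted separately.

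The labelled cell type was met by its markers. The 7 CD8 T cell markers (*Cd8a*, *Cd8b1*, *Cd3e*, *Cd3d*, *Cd3g*, *Thy1* and *Trac*) summed to between 5752 and 9115 CPM in S+P C5 and between 5400 and 7223 CPM in Sensitized. *Cd4* was at 0 in all 10 samples, and so were the B cell genes *Ms4a1* and *Pax5* and the monocyte gene *Cd14*. Traces of other cells were uneven. The 3 CD4 T cell markers summed to at most 2.72 CPM in S+P C5 and to 4.04 to 28.6 CPM in Sensitized, all of it there from *Zbtb7b*, with no overlap. The 9 myeloid markers summed to 104 to 221 CPM in S+P C5 and 85 to 449 CPM in Sensitized, where *Lyz2* was at 332 CPM in replicate 1 and at most 9.24 CPM in the others. *Cd68*, another of these markers, was higher in every S+P C5 sample than in any Sensitized sample, with 26.4 to 79.0 CPM in S+P C5 and 3.60 to 12.9 CPM in Sensitized, and passed both thresholds in the edgeR fit of only these groups (log2 fold change 2.56, adjusted p = 0.0332). The 5 granulocyte markers summed to at most 2.90 CPM in S+P C5 and to 123 CPM in Sensitized replicate 4. The 6 NK cell markers summed to between 0.0763 and 1531 CPM in S+P C5 and between 146 and 308 CPM in Sensitized, with *Gzma* at 1469 CPM in S+P C5 replicate 1. Further sums were 212 to 532 against 223 to 1188 CPM for 8 B cell markers, of which *Ighm* and *Igkc* made up most, 2.24 to 61.7 against 0.121 to 5.95 CPM for 6 erythroid markers, at most 8.84 against 15.2 CPM for 5 dendritic cell markers and at most 1.85 against 6.83 CPM for 3 platelet markers. The part of these cells in the results below was not tested.

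The gate genes are given as a description, since the sort used their proteins. *Pdcd1* had 90.3 CPM in the lowest, 326 in the median and 405 in the highest S+P C5 sample. It had 49.4, 42.7, 41.9 and 59.4 CPM in Sensitized replicates 1 to 4, below every S+P C5 sample. *Nt5e* had 21.6, 122 and 170 CPM in the lowest, median and highest S+P C5 sample. The Sensitized samples had 66.4, 236, 104 and 81.7 CPM of *Nt5e*, and the groups overlapped.

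Between S+P C5 and Sensitized, 14 of 19657 genes tested passed an adjusted p under 0.1 with an absolute log2 fold change over 0.9 (0.0712% of genes tested). Of these, 6 were higher in S+P C5 (0.0305%) and 8 were lower (0.0407%). The test was edgeR's quasi-likelihood test in 1 fit of all 7 groups, two-sided, with Benjamini-Hochberg adjustment, and all p-values and adjusted p-values below come from it unless another tool is named. Higher genes were the exhaustion factor *Tox*, the inhibitory receptor *Tigit*, *Ifi27l2a*, *Tbc1d4*, *Trgc2* and the pseudogene *Gm4956*. Lower genes were the cytokine receptors *Ifngr1* and *Il7r*, the chromatin organizer *Satb1*, the Tec family kinase *Txk*, *Tsc22d3*, *Ly6c2*, *Plaur* and the non-coding RNA *Gm43698*. An unadjusted p under 0.05 was met in the higher direction by 5.26% and in the lower by 7.72% of genes tested, and the samples of both groups did not overlap for 2.88% of genes, 286 higher (1.45%) and 280 lower (1.42%). The median log2 fold change over all genes tested was -0.0052, or -0.050 with genes at the floor in 1 group set to their bound. The count depended on the fit. With only these groups in the fit, 142 of 13427 genes were called, 101 higher and 41 lower, and all 14 genes were among them, while DESeq2 on all groups called 580 higher and 433 lower. Without S+P C5 replicates 2 and 3, the fit of all groups called 4 genes higher and 1 lower. Some genes given below with weaker p-values were called with only these groups in edgeR's fit. Examples are *Tnfsf4* (adjusted p = 6.28e-05), *Nrp1* (2.91e-04), *Cxcr5* (0.0139), *Id3* (0.0215) and *Jak2* (0.0940).

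**Figure D1:**
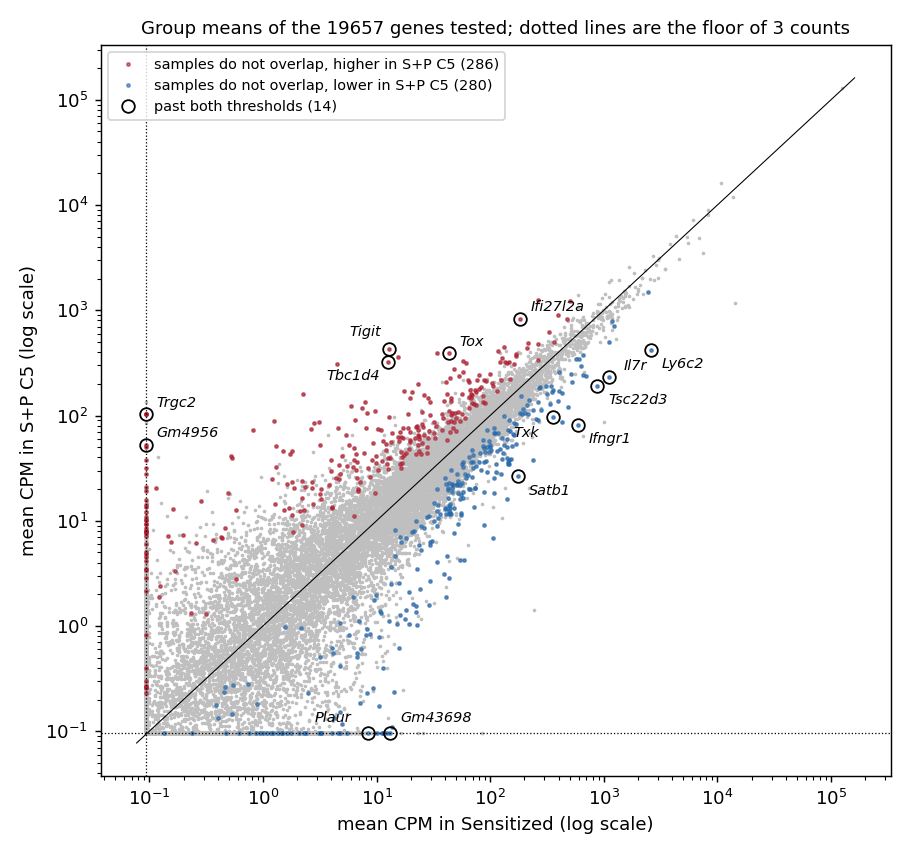
Mean CPM of each of the 19657 genes tested in Sensitized (x axis, log scale) and in S+P C5 (y axis, log scale), with the floor of 3 counts as dotted lines, equal means as a solid line, the 286 and 280 genes whose samples do not overlap in red and blue, and the 14 genes past both thresholds circled and named. *Trgc2* and *Gm4956* lie on the Sensitized floor, *Plaur* and *Gm43698* lie on the S+P C5 floor, and the other 10 circled genes have counts in both groups.

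*Tox* (ENSMUSG00000041272, GRCm39 chromosome 4, 6686353 to 6991644, minus strand) encodes the nuclear factor that maintains exhausted CD8 T cells. Its level was 252 CPM in the lowest, 405 in the median and 526 in the highest S+P C5 sample. Sensitized replicates 1 to 4 had 38.2, 52.0, 37.3 and 46.4 CPM. No sample of either group came near the other, and the Sensitized samples lay within a narrow range. The difference was 9.07-fold, a log2 fold change of 3.18 ± 0.53 (SE; p = 1.08e-06, adjusted p = 0.0118). It stayed past both thresholds when each of the 10 samples was left out in turn, with adjusted p from 0.0112 to 0.0956.

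*Tigit* (ENSMUSG00000071552, chromosome 16, 43469100 to 43484509, minus strand) encodes an inhibitory receptor that competes with the activating receptor CD226 for its ligands. S+P C5 samples ranged from 168 CPM through a median of 378 to 907 CPM. The Sensitized samples had 16.4, 4.85, 17.5 and 12.6 CPM, so that the groups were well apart although the S+P C5 samples varied 5.40-fold among themselves. The log2 fold change was 5.07 ± 1.10 (SE), or 33.7-fold, with adjusted p = 0.0892. This adjusted p was the highest of the 14, and it ran from 0.103 to 0.428 when each sample was left out of the fit of all groups in turn, so that the call was lost each time. With all samples, adjusted p was 0.00117 in the edgeR fit of only these groups and 1.14e-06 in DESeq2 on all groups. The transcript of CD226, *Cd226*, had 87.7 to 172 CPM in S+P C5 and 161 to 287 CPM in Sensitized (p = 0.0986).

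*Ifi27l2a* (ENSMUSG00000079017, chromosome 12, 103399975 to 103409950, minus strand) is an interferon-inducible gene whose protein locates to membranes of the mitochondria and nucleus. It had 613 CPM in the lowest, 687 in the median and 1530 in the highest S+P C5 sample, replicate 2. Sensitized samples had 155, 195, 209 and 170 CPM. The lowest S+P C5 sample was still well above the highest Sensitized sample. The log2 fold change was 2.19 ± 0.37 (SE; adjusted p = 0.0118), and leaving out each sample kept adjusted p between 0.0123 and 0.0956. *Ifi27l2a* overlaps *Ifi27* on the other strand, and reads of both cannot be told apart without strand. *Ifi27* itself had 176 to 250 CPM in S+P C5 and 140 to 187 CPM in Sensitized (p = 0.619).

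*Tbc1d4* (ENSMUSG00000033083, chromosome 14, 101679135 to 101846739, minus strand) encodes a Rab GTPase-activating protein that holds glucose transporters inside the cell until it is phosphorylated. Its S+P C5 levels were 194, 334 and 412 CPM in the lowest, median and highest sample. Sensitized levels were 5.62, 21.1, 7.38 and 16.2 CPM. The groups were again far apart, by 25.6-fold or a log2 fold change of 4.68 ± 0.97 (SE; adjusted p = 0.0651). With samples left out in turn the call held only without S+P C5 replicate 1, and adjusted p reached 0.319 without Sensitized replicate 3.

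*Trgc2* (ENSMUSG00000076752, chromosome 13, 19488819 to 19491721, minus strand) is a constant gene of the T cell receptor gamma locus, which αβ T cells can transcribe without using the protein. It was counted in all 10 S+P C5 libraries, with 42.1, 76.4 and 199 CPM in the lowest, median and highest sample. The 4 Sensitized samples held 3 counts in all, at 0, 0, 0.030 and 0.052 CPM, so the S+P C5 mean was 5060 times the Sensitized value, with a 95% counting interval of 1731 to 24540. Adjusted p was 0.0225, and it rose to 0.200 without Sensitized replicate 2, with the call also lost without Sensitized replicate 1 or replicate 3. Of the gamma and delta constant genes, *Trgc4* had 44.6 to 170 CPM in S+P C5 and at most 12.1 CPM in Sensitized (p = 0.0316), *Trgc3* reached 21.8 CPM in S+P C5 and was at 0 in Sensitized (p = 0.0159), and *Trgc1* had at most 7.41 CPM in any sample. The delta chain gene *Trdc* went the other way. It was at 0 in all 6 S+P C5 samples and had 5.09, 1.90, 1.12 and 1.38 CPM in Sensitized, at least 24.5-fold higher against the floor (p = 3.23e-04, adjusted p = 0.205), and the γδ T cell genes *Sox13* and *Blk* were at 0 in all 10 samples. *Trgc* genes are near-identical in places, and only reads that mapped once had been kept, so how these genes share counts is uncertain.

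*Gm4956* (ENSMUSG00000025936, chromosome 1, 21355832 to 21368351, minus strand) is a transcribed unprocessed pseudogene. S+P C5 samples had 23.9, 49.2 and 102 CPM in the lowest, median and highest sample, and all 10 libraries held it. Sensitized samples held 2 counts in all, for a ratio of 3900 with a 95% counting interval of 1080 to 32200. Adjusted p was 0.0330, and between 0.0358 and 0.217 without each sample in turn, with the call lost without any 1 of the 4 Sensitized samples. The annotation places other genes over it on both strands, so its reads are not assigned with certainty.

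**Figure D2:**
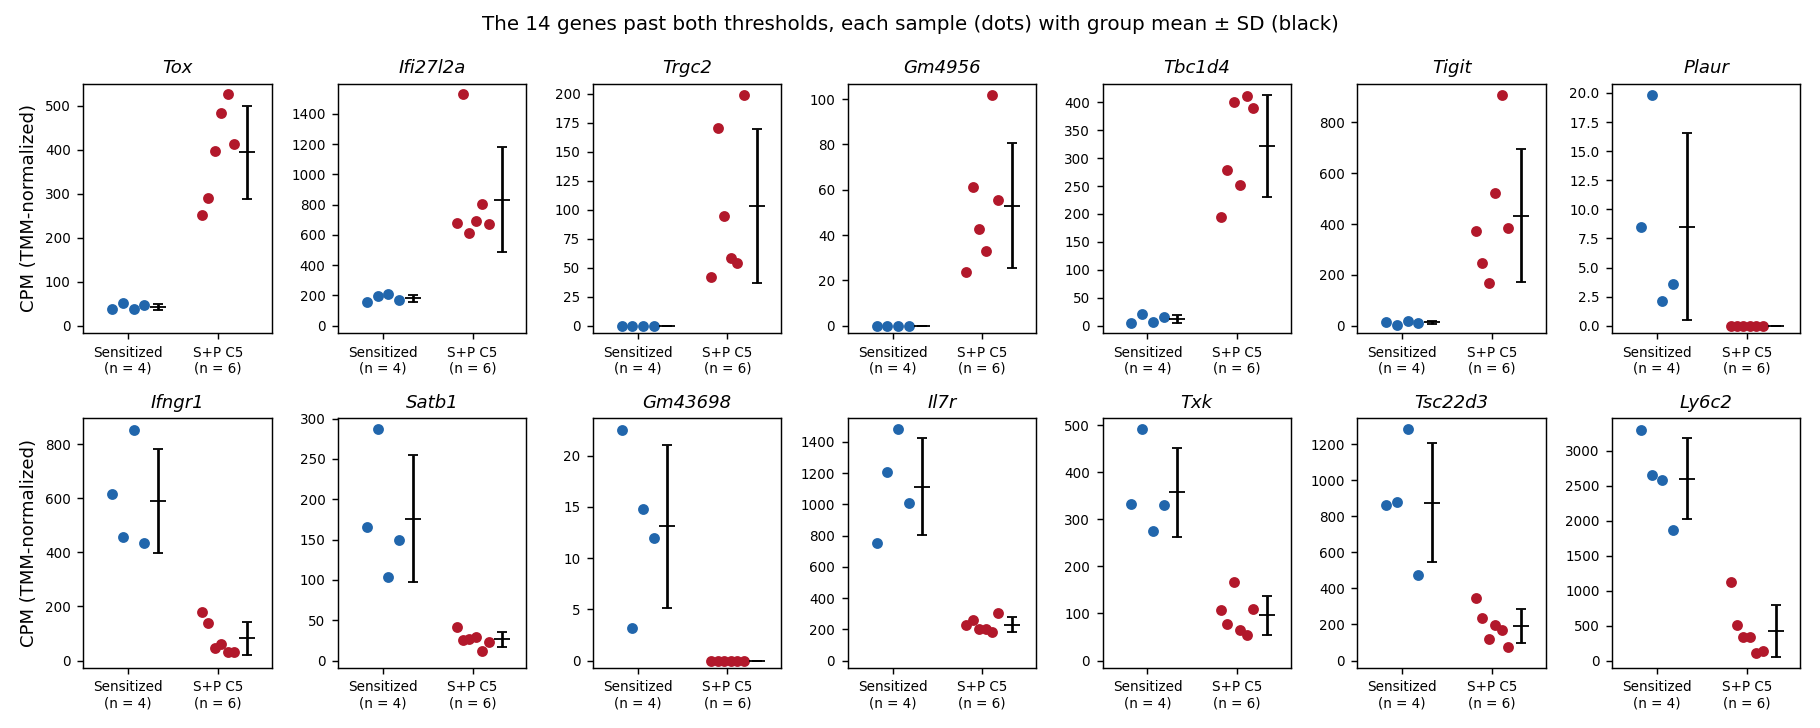
CPM of the 14 genes past both thresholds (y axes, linear and separate for each gene) in each Sensitized sample (blue dots, n = 4) and each S+P C5 sample (red dots, n = 6), with the group mean ± SD in black. For each gene the dots of both groups are fully apart, and 1 S+P C5 dot stands alone for *Ifi27l2a* at 1530 CPM.

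Among genes that were lower, the receptors came first. *Ifngr1* (ENSMUSG00000020009, chromosome 10, 19467697 to 19485977, plus strand) encodes the ligand-binding chain of the interferon gamma receptor. S+P C5 samples had 33.2, 53.2 and 180 CPM in the lowest, median and highest sample. The Sensitized samples had 617, 457, 854 and 435 CPM. Every S+P C5 sample lay below every Sensitized sample, with replicates 1 and 2 (180 and 137 CPM) above the other 4. The log2 fold change was -2.85 ± 0.49 (SE; p = 1.79e-06, adjusted p = 0.0118), or 7.23-fold lower, and the call was kept with each sample left out.

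*Il7r* (ENSMUSG00000003882, chromosome 15, 9505874 to 9530262, minus strand) encodes the alpha chain of the receptor for IL-7, the cytokine that keeps naive and memory T cells alive. It had 183, 215 and 306 CPM in the lowest, median and highest S+P C5 sample. Sensitized replicates 1 to 4 had 752, 1207, 1485 and 1009 CPM. The S+P C5 samples lay close together, and the highest of them had less than the lowest Sensitized sample. The log2 fold change was -2.28 ± 0.45 (SE; adjusted p = 0.0446). With samples left out in turn it was called only without S+P C5 replicate 1 or Sensitized replicate 1, and adjusted p reached 0.258 without Sensitized replicate 3.

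The letters of the promoters are shown for *Il7r* and *Plaur*, as genes that were lower in every S+P C5 sample and whose window holds a match. RefSeq promoter windows (GRCm38.p6) were found for 9 of the 11 protein-coding genes among the 14, 17 windows in all; *Tox* and *Ifi27l2a* were not matched. The 250 bases before each start site were searched on both strands for TTCNNNGAA (bound by STAT factors), the interferon response element, TGANTCA (AP-1), TGTTTAC (FOXO), CTTTGA (TCF/LEF) and the NFAT with AP-1 composite. Capitals mark the match, TTCNNNGAA at 142 bases before the start of *Il7r* (chr15:9529877-9530126, minus strand) and TGANTCA at 69 bases before the start of *Plaur* (chr7:24462233-24462482, plus strand).
Il7r: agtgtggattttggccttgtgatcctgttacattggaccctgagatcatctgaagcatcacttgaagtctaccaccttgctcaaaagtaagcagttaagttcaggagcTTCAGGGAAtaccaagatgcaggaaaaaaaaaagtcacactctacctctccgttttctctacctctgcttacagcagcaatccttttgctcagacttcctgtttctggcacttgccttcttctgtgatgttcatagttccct
Plaur: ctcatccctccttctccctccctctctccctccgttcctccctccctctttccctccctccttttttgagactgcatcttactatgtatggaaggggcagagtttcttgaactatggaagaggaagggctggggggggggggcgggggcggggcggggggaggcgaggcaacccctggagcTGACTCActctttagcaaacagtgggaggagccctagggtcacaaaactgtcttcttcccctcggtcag
Of 32851 windows of this length, 7.02% hold TTCNNNGAA and 6.75% hold TGANTCA. Further matches were TTCNNNGAA (207 bases before the start) and CTTTGA (128 bases) in 1 of the *Tsc22d3* windows and CTTTGA (192 bases) in 1 of the *Txk* windows, against 13.8% of all windows for CTTTGA. The windows of *Tigit*, *Tbc1d4*, *Ifngr1*, *Satb1* and *Ly6c2* hold none of these letters. The interferon response element, TGTTTAC and the NFAT with AP-1 composite, which are in 2.98%, 3.17% and 0.0548% of all windows, were in none of the 17. A match is a description of these letters only.

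*Plaur* (ENSMUSG00000046223, chromosome 7, 24161875 to 24175394, plus strand) encodes the receptor of urokinase. It was at 0 in all 6 S+P C5 samples and had 8.50, 19.8, 2.09 and 3.56 CPM in Sensitized, at least 87.8-fold higher against the floor (adjusted p = 0.0758). In 6 of 8 Sensitized libraries it was over 3 counts, and none of the 10 S+P C5 libraries held a count over 3. Adjusted p was between 0.107 and 0.223 with each sample left out in turn, so this call rested on the full set of samples.

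*Satb1* (ENSMUSG00000023927, chromosome 17, 52043114 to 52140622, minus strand) encodes a chromatin organizer that is high in naive T cells and represses *Pdcd1*. Its S+P C5 levels were 11.8, 26.0 and 41.3 CPM in the lowest, median and highest sample. Sensitized levels were 165, 287, 103 and 149 CPM, all above the S+P C5 samples. The log2 fold change was -2.74 ± 0.52 (SE; adjusted p = 0.0339), and the call was lost without S+P C5 replicate 4, 5 or 6 or without Sensitized replicate 2, where adjusted p was at most 0.217. Other annotated genes overlap *Satb1*, *Tox*, *Tbc1d4*, *Txk* and *Tsc22d3*, and reads in the shared stretches cannot be told apart.

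*Txk* (ENSMUSG00000054892, chromosome 5, 72853321 to 72910120, minus strand) encodes a kinase of the Tec family that acts below the T cell receptor. It had 53.3, 92.7 and 166 CPM in the lowest, median and highest S+P C5 sample and 332, 492, 275 and 330 CPM in Sensitized. The log2 fold change was -1.89 ± 0.38 (SE; adjusted p = 0.0558), the smallest of the 14. The call held only without S+P C5 replicate 1 or 3, and adjusted p reached 0.334 without Sensitized replicate 2. *Tsc22d3* (ENSMUSG00000031431, chromosome X, 139440091 to 139501408, minus strand), the glucocorticoid-induced gene GILZ that restrains activation, had 76.4, 184 and 347 CPM in S+P C5 and 864, 880, 1283 and 475 CPM in Sensitized. Its log2 fold change was -2.19 ± 0.46 (SE; adjusted p = 0.0701, and 0.319 without Sensitized replicate 3), and the call held only without S+P C5 replicate 1 or Sensitized replicate 4.

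*Ly6c2* (ENSMUSG00000022584, chromosome 15, 74980003 to 74988467, minus strand) encodes Ly6C, a surface protein of memory CD8 T cells. The S+P C5 samples spread widely, from 109 CPM through a median of 331 to 1116 CPM in replicate 1. Sensitized samples had 3298, 2655, 2581 and 1869 CPM. Even the highest S+P C5 sample stayed below them, and the log2 fold change was -2.62 ± 0.55 (SE; adjusted p = 0.0701, and 0.251 without Sensitized replicate 1), with the call held only without S+P C5 replicate 1. The lncRNA *Gm43698* (ENSMUSG00000107266, chromosome 5, 67517660 to 67523998, plus strand) was at 0 in the 6 S+P C5 samples and had 3.20 to 22.5 CPM in the 4 Sensitized samples, at least 136-fold higher against the floor (adjusted p = 0.0362, and 0.139 without S+P C5 replicate 5, with the call also lost without replicate 4 or 6). It lies over *Bend4* on the other strand, which had 10.7 to 67.1 CPM in S+P C5 and 20.9 to 47.5 CPM in Sensitized (p = 0.664).

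S+P C5 replicate 1 had the highest S+P C5 level for 4 of the 6 lower genes that were counted there, *Ifngr1*, *Satb1*, *Tsc22d3* and *Ly6c2*. It was also the sample with the most *Gzma* and had 62.2 CPM of the NK1.1 gene *Klrb1c*, against at most 13.7 CPM in the other S+P C5 samples and 53.3 to 126 CPM in Sensitized. Of the other NK cell markers, this sample had *Ncr1*, *Itga2* and *Fcer1g* at 0 and *Tyrobp* at 0.13 CPM. Without this sample 6 genes were higher and 10 lower past both thresholds. The part of the sample in the results was not tested further.

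In the inhibitory receptor list, 6 of 16 members tested were higher in S+P C5 at an unadjusted p under 0.05 and 0 were lower. Of all genes, 5.26% and 7.72% were, and these shares are the background for the counts of every list below. The list also holds the ligand genes *Cd200*, *Pdcd1lg2* and *Cd274* and the enzyme gene *Entpd1*. The 6 were *Lag3*, *Tigit*, *Ctla4*, *Havcr2* and the ligand genes *Cd200* and *Pdcd1lg2*. *Pdcd1lg2* had 49.0 to 117 CPM in S+P C5 and 0.485 to 10.4 CPM in Sensitized (p = 0.0397). The list's median log2 fold change was 1.43, and *Tigit* was its 1 call. *Cd200*, whose protein signals to an inhibitory receptor on myeloid cells, had 170, 292 and 493 CPM in the lowest, median and highest S+P C5 sample and 0.273 to 7.84 CPM in Sensitized (p = 4.43e-04, adjusted p = 0.237). *Lag3*, which binds MHC class II, had 42.3, 406 and 703 CPM in S+P C5 and 14.5, 0, 20.9 and 26.6 CPM in Sensitized, with no overlap (p = 0.00421, adjusted p = 0.277). *Ctla4*, which takes ligands away from CD28, had 99.9, 339 and 576 CPM against 43.1, 98.1, 61.6 and 27.3 CPM, so that the lowest S+P C5 sample and the highest Sensitized sample nearly met (p = 0.0156). *Havcr2*, the gene of TIM-3, had 0.841, 23.8 and 57.8 CPM in S+P C5. In Sensitized it was at 0 to 6.07 CPM (p = 0.0462), and the groups overlapped in 1 S+P C5 sample. *Klrg1*, a receptor of terminal effector cells, had 0 to 126 CPM in S+P C5 and 81.6 to 137 CPM in Sensitized (p = 0.280).

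The nuclear factors around TOX and NFAT held 4 of 16 higher and 1 lower at the same unadjusted threshold, with a median of 0.58. *Nfatc1*, the NFAT member that activated T cells induce, had 265, 300 and 419 CPM in S+P C5 and 121, 104, 152 and 108 CPM in Sensitized (log2 fold change 1.42 ± 0.35 SE, adjusted p = 0.205). *Nfat5*, the tonicity-responsive member, had 76.7, 118 and 332 CPM against 24.6 to 39 CPM (adjusted p = 0.234). *Tox2* had 22.6 to 60.2 CPM in S+P C5 and 0 to 2.06 CPM in Sensitized (p = 0.0101). The lower member was *Ppp3ca*, a catalytic subunit of the calcineurin phosphatase that activates NFAT, at 13.1 to 35.2 CPM against 54.0 to 105 CPM (p = 0.0471). *Nr4a1*, an early gene of T cell receptor signalling, had 8.61 to 178 CPM and 7.5 to 206 CPM and did not differ beyond this spread (p = 0.927).

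Memory and quiescence factors had 0 of 20 higher and 5 lower at an unadjusted p under 0.05. The list's median log2 fold change was only -0.12. Samples of the groups did not overlap for 2 members that were higher and 4 that were lower, against 1.45% and 1.42% of all genes tested. Beside *Satb1*, the anti-proliferative gene *Btg2* had 90.6 to 252 CPM in S+P C5 and 296 to 853 CPM in Sensitized (p = 8.65e-04, adjusted p = 0.277). *Lef1*, a partner of TCF1 in naive and memory cells, had 17.4 to 99.1 CPM against 129 to 188 CPM (p = 0.00611). *Klf2*, which drives homing receptors, had 155 to 418 CPM against 242 to 660 CPM, with overlap (p = 0.0259). *Id3* had 86.4 to 172 CPM in S+P C5 and 13.5 to 51.3 CPM in Sensitized with p = 0.0920, although its samples did not overlap. In the edgeR fit of only these groups the adjusted p of *Id3* was 0.0215. The other member that was higher without overlap was *Tcf7*, the gene of TCF1, with 410 to 723 CPM against 299 to 386 CPM (p = 0.224).

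Effector factors had 4 of 20 higher and 1 lower at an unadjusted p under 0.05, against 5.26% and 7.72% of all genes tested. *Maf*, a factor of IL-10 and IL-21 production, had 27.0, 79.2 and 190 CPM in S+P C5 and 0.539 to 4.15 CPM in Sensitized (p = 0.00267, adjusted p = 0.277). *Irf4*, induced by strong receptor signalling, had 51.9 to 96.3 CPM against 0.030 to 6.28 CPM (p = 0.0132), and *Hif1a*, the hypoxia factor, 184 to 426 CPM against 42.8 to 77.2 CPM (p = 0.00735). *Id2*, which supports effector cells, had 417 to 1041 CPM against 800 to 1852 CPM (p = 0.00853). *Eomes*, a T-box factor of memory and exhausted cells, had 97.7 to 202 CPM in S+P C5 and 17.9 to 101 CPM in Sensitized and was not past the threshold (p = 0.166).

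**Figure D3:**
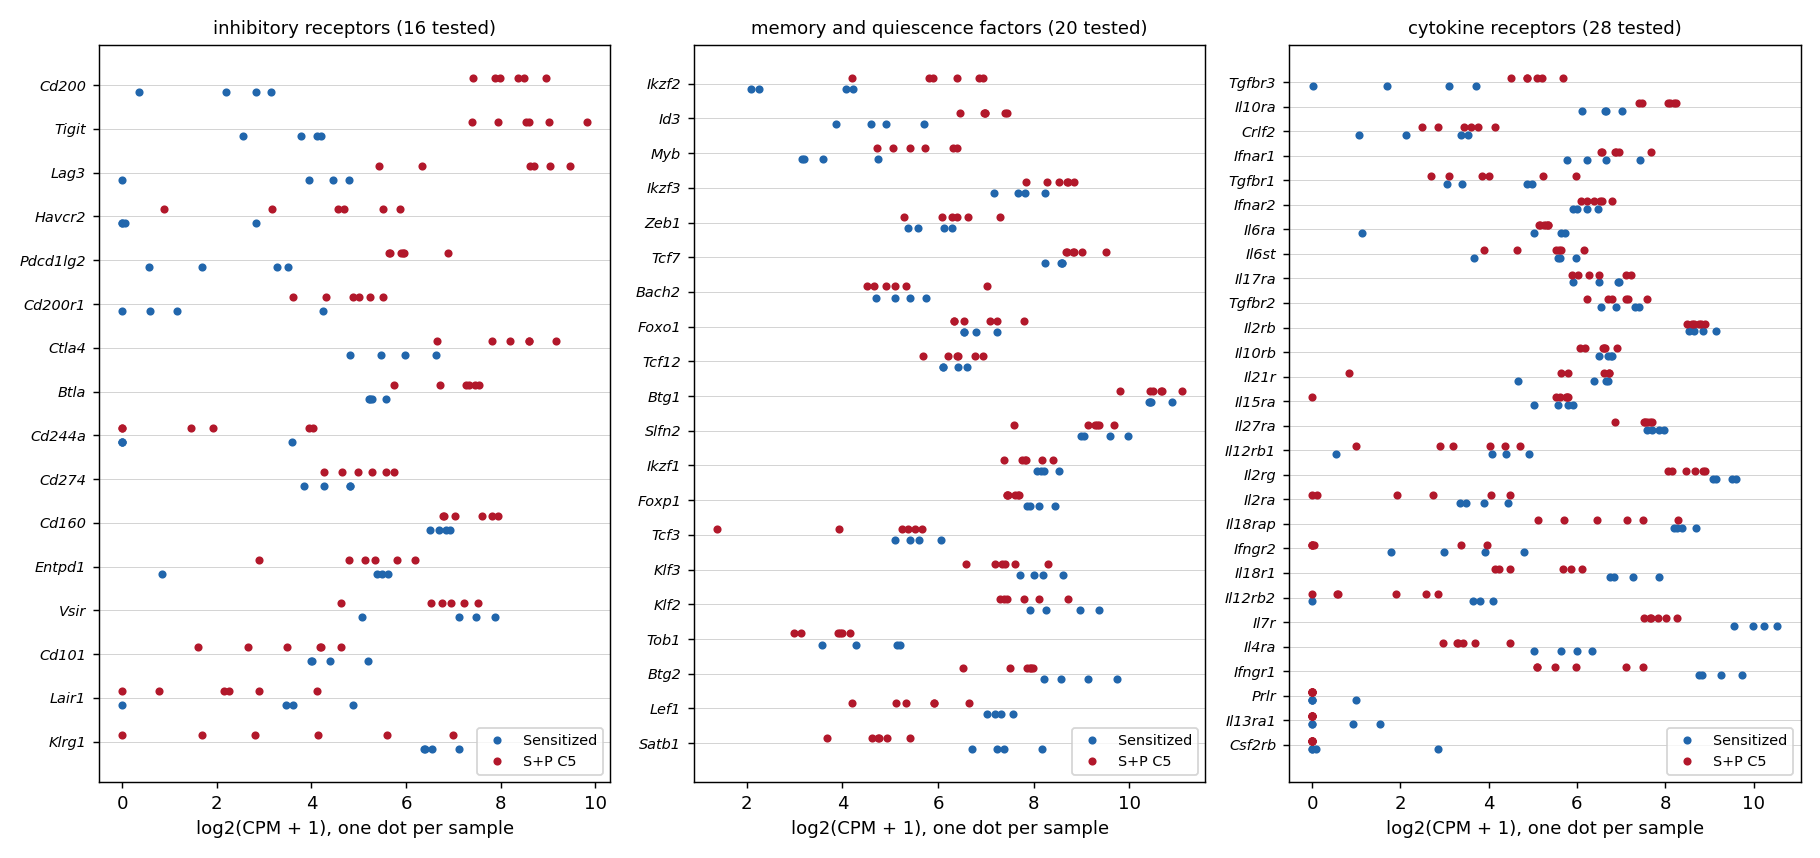
Log2(CPM + 1) of each member tested of the inhibitory receptor list (16, ligands included), the memory and quiescence factors (20) and the cytokine receptors (28), 1 dot per sample, with Sensitized in blue and S+P C5 in red and members ordered by log2 fold change. *Cd200*, *Tigit* and *Lag3* are fully apart at the top of the first panel, and *Satb1*, *Ifngr1* and *Il7r* are fully apart near the bottom of the others.

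Cytokine receptors had 0 of 28 higher and 7 lower at an unadjusted p under 0.05, of which *Ifngr1* and *Il7r* were called. Another 3 of the 7, *Il13ra1*, *Prlr* and *Csf2rb*, were at the floor in S+P C5, could only come out lower, and had at most 1.90, 1.00 and 6.25 CPM in any Sensitized sample. *Il2rg*, the common gamma chain that pairs with *Il7r*, had 267, 381 and 480 CPM in the lowest, median and highest S+P C5 sample and 542 to 781 CPM in Sensitized, without overlap (log2 fold change -0.80 ± 0.26 SE, p = 0.00473, adjusted p = 0.277). In the other direction, the IL-10 receptor chain *Il10ra* had 169 to 304 CPM in S+P C5 and 68.4 to 129 CPM in Sensitized (p = 0.0591). Of the kinases and factors below these receptors, 0 of 23 were higher and 1 was lower, *Smad3*, the TGF-beta signal transducer, with 0.915 to 30.3 CPM against 65.1 to 93.0 CPM (p = 0.00505). *Jak2* had 83.9 to 132 CPM against 42.3 to 61.9 CPM, without overlap (p = 0.114). In the edgeR fit of only these groups *Jak2* was called higher (log2 fold change 1.07, adjusted p = 0.0940). *Stat5b* had 40.9 to 78.7 CPM and 32.5 to 64.5 CPM (p = 0.686).

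For T cell receptor signalling, 2 of 30 members were higher and 3 were lower. *Sh2d1a*, the gene of the SLAM adaptor SAP, had 247, 363 and 610 CPM in S+P C5 and 116, 147, 117 and 93.6 CPM in Sensitized (log2 fold change 1.81 ± 0.45 SE, adjusted p = 0.205). The Src kinase gene *Fyn*, with which SAP acts, had 380 to 575 CPM against 147 to 298 CPM (p = 0.00437). *Slamf6*, the SLAM receptor of precursor exhausted cells, had 819, 1322 and 1478 CPM in S+P C5 and 242, 226, 288 and 304 CPM in Sensitized (log2 fold change 2.24 ± 0.53 SE, p = 1.89e-04, adjusted p = 0.177). These 3 genes did not overlap between the groups. Among costimulatory and SLAM genes 3 of 15 were higher and 1 lower, *Cd7*, with 7.02 to 59.8 CPM against 209 to 296 CPM (p = 0.00278). Of the T cell identity genes 2 of 12 were higher and 0 lower.

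*Tnfsf4*, the gene of OX40 ligand, had 31.4, 94.8 and 193 CPM in the lowest, median and highest S+P C5 sample. The 4 Sensitized samples held 2 counts in all, for a ratio of 7532 with a 95% counting interval of 2085 to 62190 (p = 9.58e-05, adjusted p = 0.126). Of the TNF ligands it was the 1 of 8 with an unadjusted p under 0.05, and of the TNF receptors 0 of 15 had one. *Tnfrsf4*, the gene of OX40 itself, had 3.31 to 141 CPM in S+P C5 and 0.234 to 10.2 CPM in Sensitized (p = 0.0634). The anergy and adenosine genes had 3 of 18 higher and 0 lower. Among them were *Izumo1r*, the gene of folate receptor FR4, with 34.1, 118 and 194 CPM against 8.01, 0, 0.030 and 15.7 CPM (p = 0.00190), the neuropilin gene *Nrp1* with 96.8 to 216 CPM against 13.6 to 23.2 CPM (p = 0.0167), and *Rnf128*, the anergy ligase GRAIL, with 2.74 to 68.5 CPM against 3 counts in all of Sensitized (p = 9.79e-04).

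Cytokine genes had 7 of 15 higher and 0 lower at an unadjusted p under 0.05, with none past the adjusted threshold. The 7 are the same 7 members that were at the floor in Sensitized, and such genes can only come out higher, so the count does not describe the list. *Il21*, a cytokine of helper cells that sustains CD8 T cells in chronic infection, had 1.14, 28.3 and 51.4 CPM in the lowest, median and highest S+P C5 sample and 0 in Sensitized, at least 300-fold higher against the floor (p = 5.12e-04, adjusted p = 0.255). *Il10* was over the floor in 7 of 10 S+P C5 libraries, from 0 to 28.4 CPM, and at 0 in Sensitized (p = 0.00358). *Spp1*, the gene of osteopontin, ran from 0 through a median of 17.0 to 476 CPM, and *Penk*, the enkephalin precursor, from 0 through 54.3 to 206 CPM, while Sensitized held 2 counts of the first and 0 of the second. Both were 0 in at least 1 S+P C5 sample. *Il2* had 0.042 to 20.4 CPM and 3.07 to 11.1 CPM (p = 0.766).

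Of the chemokines, 4 of 9 were higher and 1 was lower at an unadjusted p under 0.05, and none passed the adjusted threshold. At the floor in a group were 2 of the 9, and such members can come out in 1 direction only. *Xcl1*, the ligand that draws cross-presenting dendritic cells, had 138, 391 and 783 CPM in S+P C5 and 31.9 to 37.4 CPM in Sensitized, without overlap (p = 0.00349, adjusted p = 0.277). *Cxcl10* had 41.6 to 216 CPM against 0.150 to 13.2 CPM (p = 0.0281). *Ccl1* came from 1 library of 10. *Ccl5*, among the most abundant transcripts of memory CD8 T cells, had 1064 to 7481 CPM in S+P C5 and 5266 to 10750 CPM in Sensitized (p = 0.0444). The chemokine receptors had 3 of 15 higher and 3 lower. *Cxcr6*, a receptor of tissue-homing cells, had 19.6, 97.1 and 249 CPM against 447, 534, 521 and 421 CPM (log2 fold change -2.01 ± 0.49 SE, adjusted p = 0.196), and *Ccr9*, a gut-homing receptor, 0 to 6.08 CPM against 32.8 to 48.5 CPM (p = 0.0219). *Ccr7*, the lymph node receptor, had 22.3 to 135 CPM against 121 to 531 CPM (p = 0.0147). *Cxcr5*, the follicle receptor, had 83.6, 210 and 260 CPM against 9.26 to 41.7 CPM, without overlap, at p = 0.0508. In the edgeR fit of only these groups the adjusted p of *Cxcr5* was 0.0139.

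Of the homing and adhesion genes, 7 of 24 were lower and 2 higher at an unadjusted p under 0.05, with a median log2 fold change of -0.94 and 1 call, *Ly6c2*. *S1pr1*, the sphingosine phosphate receptor by which T cells leave lymph nodes, had 119, 227 and 369 CPM in S+P C5 and 793, 813, 646 and 526 CPM in Sensitized (log2 fold change -1.53 ± 0.35 SE, p = 1.33e-04, adjusted p = 0.152). The integrin chains *Itgal* and *Itgb1* had 629 to 1123 CPM against 419 to 581 CPM (p = 0.00333) and 566 to 1113 CPM against 297 to 472 CPM (p = 0.00648), higher in all 6 S+P C5 samples. *Cd44* had 144 to 403 CPM and 114 to 251 CPM (p = 0.102).

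Of 19 cytotoxic genes 1 was higher and 2 were lower at an unadjusted p under 0.05, *Prf1* (perforin) with 41.4 to 195 CPM against 125 to 301 CPM (p = 0.0106) and *Fasl* with 3.36 to 140 CPM against 106 to 323 CPM (p = 0.0306), while the proteoglycan gene *Srgn* had 597 to 1720 CPM against 472 to 735 CPM (p = 0.0315). The NK lectin receptors had 1 of 19 higher and 3 lower. *Klrk1*, the activating receptor NKG2D, had 349, 517 and 597 CPM in S+P C5 and 915 to 1312 CPM in Sensitized, without overlap (p = 0.00765, adjusted p = 0.277).

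Interferon-stimulated genes had 1 of 46 higher, the call *Ifi27l2a*, and 4 lower, with a median of -0.41. Both directions together made up 10.87% of the list. Of all genes tested, 5.26% were higher and 7.72% lower at this unadjusted threshold, so by this count the list did not stand out. Samples of the groups were fully apart for 2 of the 46 members that were higher and 5 that were lower. Of all genes tested, 1.45% and 1.42% were. *Epsti1* had 39.7, 134 and 266 CPM in S+P C5 and 315 to 482 CPM in Sensitized (p = 2.01e-04, adjusted p = 0.180). *Ifit1bl1*, with 57.0 to 153 CPM against 230 to 296 CPM (p = 0.0307), and *Oas2*, with 0 to 3.86 CPM against 12.7 to 26.5 CPM (p = 0.0318), did not overlap between the groups. *Ifi47* had 237 to 461 CPM against 446 to 715 CPM, with overlap (p = 0.0216). *Isg15* was at most 8.42 CPM in every sample. *Epsti1* and *Dnajc15* overlap on opposite strands, and *Dnajc15*, an inhibitor of the respiratory chain, had 123, 131 and 270 CPM in S+P C5 against 316 to 632 CPM (adjusted p = 0.145), so their reads cannot be told apart where they overlap. None of 37 interferon gamma targets and class I presentation genes had an unadjusted p under 0.05 in edgeR's test.

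Survival genes included *Bcl2*, the anti-apoptotic gene downstream of IL-7, with 75.4, 115 and 158 CPM in S+P C5 and 220 to 366 CPM in Sensitized (log2 fold change -1.32 ± 0.41 SE, p = 0.00312), and *Bbc3*, the pro-apoptotic gene PUMA, with 0 to 0.896 CPM against 7.20 to 31.1 CPM (p = 0.00143). In all 2 of 26 were higher and 2 lower. In the glucose list, with *Tbc1d4* as its call, 2 of 25 were higher and 1 lower, *Txnip*, an inhibitor of glucose uptake, with 182 to 301 CPM against 422 to 1040 CPM (p = 0.00155). Such members were 12% of the glucose list. Steroid and hormone response genes had 3 of 27 higher and 3 lower. Beside *Tsc22d3*, *Klf13* had 211 to 440 CPM against 563 to 750 CPM (log2 fold change -1.07 ± 0.26 SE, adjusted p = 0.198), while the glucocorticoid target *Fkbp5* had 23.1 to 101 CPM against 4.46 to 23.2 CPM (p = 0.0594). Cell cycle genes had 2 of 42 higher and 1 lower, together 7.14% of the list. Of all genes tested, 5.26% were higher and 7.72% lower. *Mki67* had 44.7 to 156 CPM in S+P C5 and 0.909 to 64.7 CPM in Sensitized (p = 0.0663).

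Other lists held few such members. Ribosomal protein genes had 0 of 86 higher and 7 lower with a median of -0.16. The lower members were 8.14% of the list, near the 7.72% of all genes tested. The S100, annexin and lectin genes had 0 of 19 higher and 2 lower, *S100a8* and *S100a9*. These were at 68.4 and 27.5 CPM in Sensitized replicate 4, the sample with granulocyte markers, and at 0 in the other 3. The AP-1 factors had 0 of 11 higher and 1 lower, and the cholesterol and amino acid genes 1 of 27 and 1. Stress and dissociation genes had 0 of 18 higher and 2 lower, of which *Btg2* is also a memory factor and *Zfp36* had 23.2 to 150 CPM against 52.5 to 479 CPM (p = 0.0155). No member of the GIMAP family (8 tested), the proteasome (31), the DNA and histone methylation genes (18) or the mitochondrially encoded genes (13) had an unadjusted p under 0.05 in edgeR's test or passed its adjusted threshold.

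**Figure D4:**
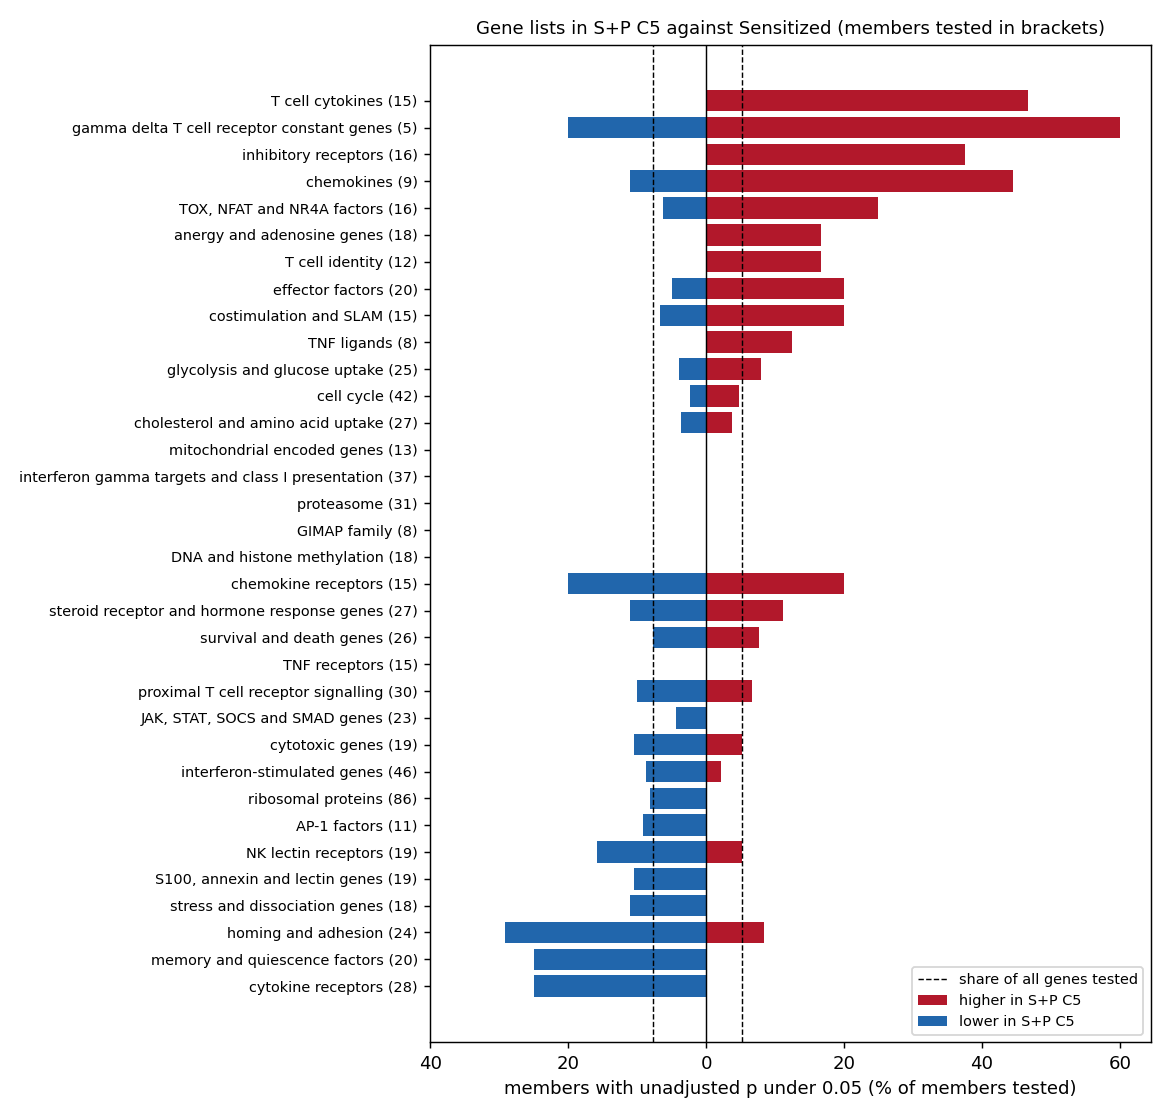
Share of the members tested with an unadjusted p under 0.05 in each of 34 gene lists (y axis, number of members tested in brackets), higher in S+P C5 to the right in red and lower to the left in blue, with dashed lines at 5.26% and 7.72%, the shares of all genes tested. Gamma delta T cell receptor constant genes, T cell cytokines, chemokines and the inhibitory receptor list, which includes ligands, reach farthest to the right. Homing, memory and cytokine receptor genes reach farthest to the left. Members at the floor in a group, which can come out in 1 direction only, were 3 of 5, 7 of 15 and 2 of 9 in the first 3 lists. They were 3 of 28 among the cytokine receptors.

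By smallest p, the protein-coding genes with no overlap between the groups also included genes outside these lists. *Mmp10*, the matrix metalloproteinase stromelysin-2, had 1.29, 9.80 and 19.0 CPM in S+P C5 and 0 in Sensitized, at least 116-fold higher against the floor (p = 1.39e-04, adjusted p = 0.152). *Sostdc1*, a secreted inhibitor of BMP and WNT signals, had 9.50, 70.3 and 219 CPM in S+P C5, and Sensitized held 1 count (ratio 15070, 95% counting interval 2704 to 595200, adjusted p = 0.163). *Setbp1* had 8.07 to 41.8 CPM against 2 counts (adjusted p = 0.205). *Ifi208*, of the interferon-inducible PYHIN family, had 0.297, 18.5 and 28.7 CPM in S+P C5 and 187, 139, 118 and 123 CPM in Sensitized (log2 fold change -3.15 ± 0.75 SE, adjusted p = 0.187).

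The other memory subsets of the S+P mice, S+P C4 (PD1-, 6 samples) and S+P C7 (PD1+CD73-, 5 samples), show the 14 genes in other gates of the post-partum state. These comparisons share the S+P C5 samples with the one above, so their values are set side by side only. Against S+P C4, 6 of 19657 genes (0.0305%) were past both thresholds, namely *Satb1*, *Ifngr1* and *Gm43698* lower and *Ifi27l2a*, *Mmp10* and *Slamf6* higher in S+P C5. The gates share replicate numbers, and the methods name cell suspensions of individual mice, but no source used here states that a number is 1 mouse in every gate. With the number as a block, 2 genes were higher and 10 lower. *Gm43698* and *Mmp10* were then no longer called, while *Ly6c2* (log2 fold change -2.47, adjusted p = 1.98e-04) and *Tsc22d3* (-1.96, adjusted p = 0.00889) were. Against S+P C7, 0 genes passed with edgeR, 12.7% had an unadjusted p under 0.05, DESeq2 on all groups called 159 higher and 454 lower, and voom with quality weights called 32 and 73. For 7 of the 14 genes the samples were apart from those of S+P C4 (0.687% of all genes tested), and for 1 from those of S+P C7 (0.397%).

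*Tox* had 26.9, 171 and 217 CPM in the lowest, median and highest S+P C4 sample, below every S+P C5 sample (log2 fold change 1.55, p = 8.75e-04, adjusted p = 0.297), and 150, 389 and 585 CPM in S+P C7 (p = 0.712). *Ifngr1* had 276 to 948 CPM in S+P C4, over the whole Sensitized range (log2 fold change -2.68, adjusted p = 0.0190), and 77.5 to 473 CPM in S+P C7 (p = 5.53e-04, adjusted p = 0.278). *Satb1* had 79.8 to 751 CPM in S+P C4 (adjusted p = 0.00183) and 8.15 to 64.3 CPM in S+P C7 (p = 0.876). *Il7r* was ordered in another way, with 122 to 1035 CPM in S+P C4 and 20.4 to 132 CPM in S+P C7, so that S+P C5 lay above every S+P C7 sample (log2 fold change 1.27, p = 0.00648, adjusted p = 0.278). *Trgc2* was present in all 3 post-partum memory subsets, with 0.298 to 1374 CPM in S+P C4 and 56.5 to 748 CPM in S+P C7. *Tigit* had 0.199 to 185 CPM in S+P C4 and 20.7 to 654 CPM in S+P C7.

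In cells of mice that were never grafted, *Satb1* had 482 to 695 CPM in Naive and 145 to 266 CPM in N+P C5, the PD1+CD73+ gate after pregnancy without sensitization. *Tbc1d4* had 187 to 305 CPM in N+P C5 and 2.65 to 29.2 CPM in Naive, and *Gm4956* had 32.0 to 86.0 CPM in N+P C5 and 2.15 to 3.91 CPM in Naive. *Ly6c2* had 275 to 387 CPM in Naive and 173 to 309 CPM in N+P C5, in the range of S+P C5 and below Sensitized. *Plaur* had 23.7 to 32.1 CPM in Naive and 2.20 to 25.6 CPM in N+P C5.

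**Figure D5:**
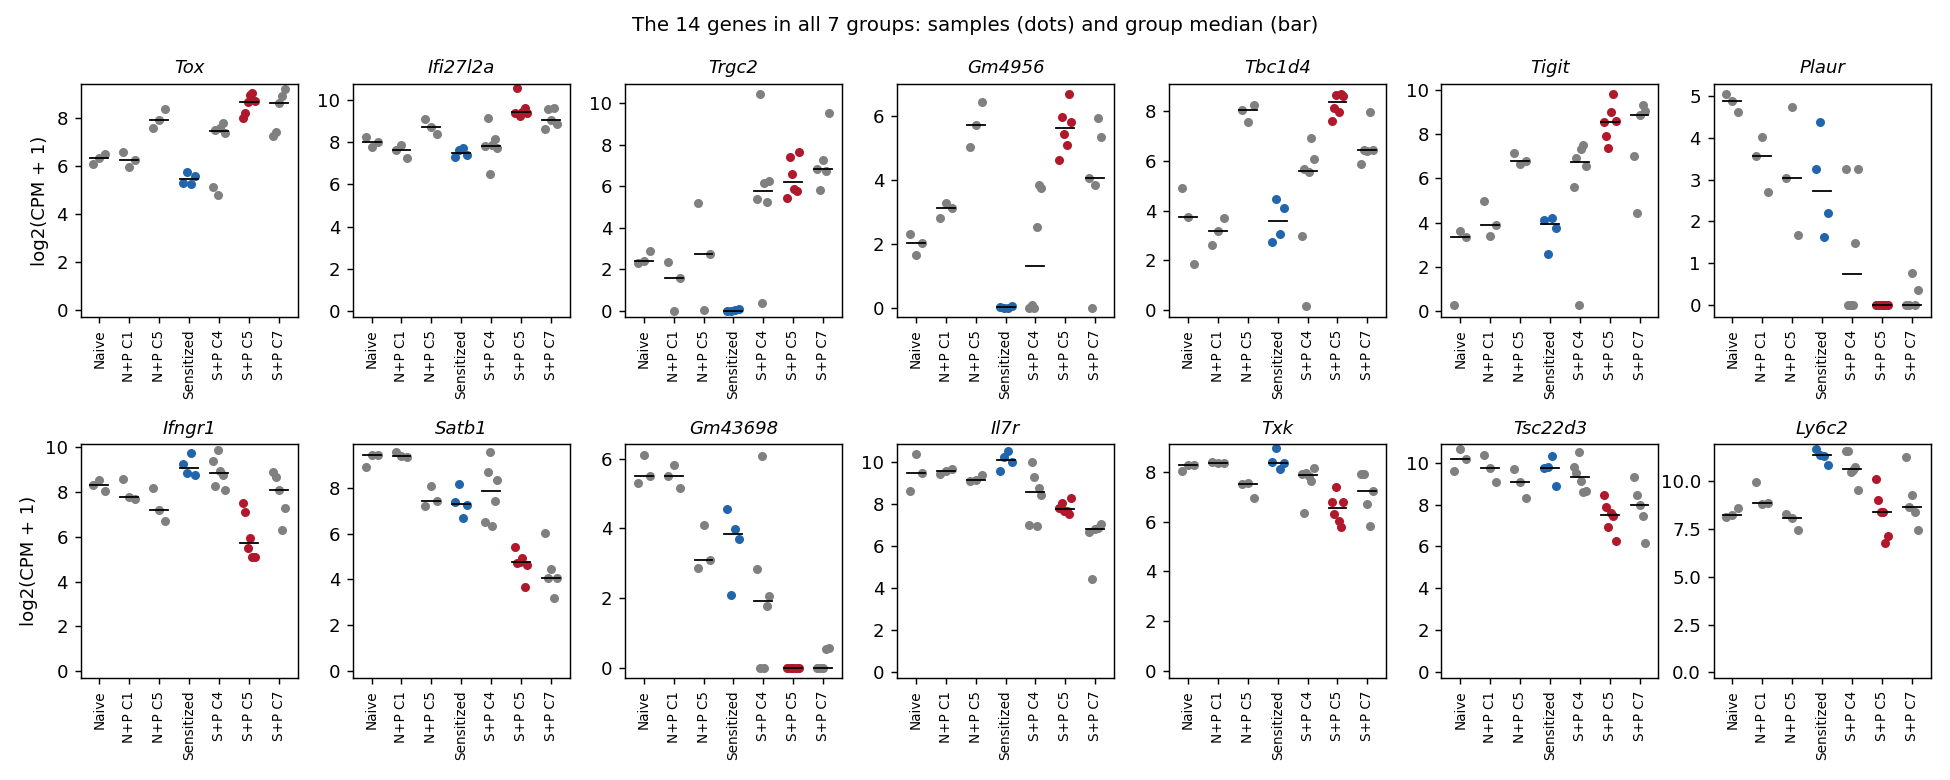
Log2(CPM + 1) of the 14 genes in the 30 samples of all 7 groups (dots) with group medians (bars), Sensitized in blue, S+P C5 in red and the other groups in grey. *Satb1* is low in S+P C5 and S+P C7 and high in Naive and N+P C1, *Ifngr1* is lowest by median in S+P C5, and *Tbc1d4* is high in both PD1+CD73+ groups.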

How the data were processed

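OVA:Kb tetramer-binding CD8 T cells were profiled by SmartSeq2 RNA-seq, a protocol that does not mark strand, with 200 cells per library and all libraries in 1 sequencing run. Per the methods and the submitters' processing notes, the authors trimmed reads with Cutadapt 3.4, aligned them to GRCm39 with STAR 2.6.1b, kept uniquely mapped reads and counted them per gene with featureCounts 2.0.1. The deposited values are these raw counts for 55359 genes, not normalized. Reads of near-identical genes are therefore lost or split.

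Counts of technical libraries were summed per replicate, with groups taken from the labels. Of 56 libraries, 2 that were identical (in Naive and S+P C4) were left out, and 2 nearly identical S+P C7 libraries of different replicates (Pearson's r = 0.9976) were averaged and their replicates counted as 1, so that 30 of the 31 labelled samples in 7 groups entered the fit. None of these was in S+P C5 or Sensitized. Per the methods, suspensions were made from individual mice, with technical replicates of each biological sample. Genes were filtered with filterByExpr (minimum count 10), scaled by TMM and tested with edgeR 4.0.16 (glmQLFit, robust, and glmQLFTest) in R 4.3.3, all groups in 1 fit, and called at adjusted p under 0.1 and absolute log2 fold change over 0.9. The standard error is the log2 fold change divided by the root of the F statistic. A group with at most 3 counts in each sample was at the floor, and folds against it are bounds, or ratios with exact 95% Poisson intervals where it held 1 to 3 counts. The script was tested on simulated counts.

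Named genes were all genes past both thresholds, the 12 protein-coding genes with the smallest p in each direction whose samples did not overlap, up to 4 members with the smallest p in each direction from each of 34 gene lists, the gate genes, and genes named by the study for this comparison. The members and lists were chosen with earlier results of these data known. Coordinates come from GENCODE M39 (GRCm39) and promoter sequences from RefSeq (GRCm38.p6), with the builds kept apart. Alternatives were other tools (DESeq2 1.42.0, voom in limma 3.58.1), other scalings and filters, a replicate block, and samples left out. Values of a few genes are not reported here.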

Additional observations from a re-analysis of the deposited data

Results flagged for a closer look

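Of the named genes, 81 groups of samples from 43 genes were checked for 1 sample far from the others by Dixon's criterion, and 5 stood out (6.17%). The criterion's chance rate of about 1 in 20 holds for normally distributed values, so it does not apply to groups with values at 0. *Ifi27l2a* had 1530 CPM in S+P C5 replicate 2 and 613 to 802 CPM in the other 5 samples. *Nfat5* had 332 CPM in S+P C5 replicate 3, against 76.7 to 140 CPM in the others, and 39 CPM in Sensitized replicate 3, against 24.6 to 25.6 CPM. *Havcr2* had 6.07 CPM in Sensitized replicate 3 and at most 0.052 CPM in the other 3. *Sostdc1* had 0.03035 CPM in Sensitized replicate 3, which is 1 count, and 0 in the others, a case in which any count stands out. Of these genes, only *Ifi27l2a* was past both thresholds, and its call was kept without that sample.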

How the results depend on the processing

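For S+P C5 against Sensitized, the 14 genes kept their direction under all settings in which they were tested, but how many genes were called did not hold. From 6 higher and 8 lower, the counts became 101 and 41 with only the groups compared in the fit, 580 and 433 with DESeq2 on all groups, 612 and 295 with DESeq2 on the groups compared, 470 and 312 with voom and quality weights, 107 and 92 without the samples under 9000 genes (all in other groups), and 12 and 14 with a mean of at least 10 CPM. DESeq2 on separate technical libraries, which treats repeat libraries of a sample as replicates, gave 602 and 332. Lower genes became 2 without a filter, 1 without the S+P C5 samples of 1 library, and 4 at an adjusted p under 0.05. Leaving out each sample gave 2 to 6 higher and 1 to 10 lower. Scaling by RLE, by library size or without the rRNA gene gave 5 to 6 higher and 6 to 8 lower. *Tox*, *Ifi27l2a* and *Ifngr1* were called in 22 of 23 settings, all but the one without a filter, *Plaur* in 9 of 22 and *Tigit* in 10 of 23.

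Against S+P C4, where edgeR called 3 higher and 3 lower, the counts were 1 and 1 with the groups compared, 563 and 412 with DESeq2 on all groups, 239 and 87 with DESeq2 on the groups compared, 312 and 180 with voom, 412 and 352 with separate libraries, 15 and 18 without the samples under 9000 genes, and 0 and 1 without the S+P C5 samples of 1 library. Higher genes became 0 without a filter and 0 at an adjusted p under 0.05, and lower genes 10 with a mean of at least 10 CPM. Leaving out each sample gave 0 to 6 higher and 2 to 8 lower. Against S+P C7, where edgeR called 0 and 0, DESeq2 called 159 and 454 on all groups, 76 and 135 on the groups compared and 164 and 279 on separate libraries, voom 32 and 73, and the fit without a filter 0 and 5. Leaving out each sample gave 0 higher and 0 to 1 lower. Beyond what the settings themselves change, the cause was not tested.

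With the replicate number as a block, 4 genes were higher and 13 lower against Sensitized, 2 and 10 against S+P C4, and 0 and 0 against S+P C7. Sensitized mice were never mated, so a number shared by S+P C5 and Sensitized cannot be 1 mouse. For the S+P gates, no source used here states that a number is 1 mouse in every gate. Deviations from the group means of same-numbered samples correlated with mean r = 0.0411 for Sensitized, 0.109 for S+P C4 and 0.116 for S+P C7, with lowest values of -0.0328, 0.0788 and 0.0809. Samples of different numbers had mean r = -0.00605, -0.0174 and -0.0192. Every same-numbered value for S+P C4 and S+P C7 was thus positive and above the mean of different numbers. For lack of a source the pairing was not taken as given, and the main tests against S+P C4 and S+P C7 do not use it. The best correlate had the same number for 3 of 4 S+P C5 samples that had a partner in Sensitized, 4 of 6 in S+P C4 and 5 of 5 in S+P C7. Depth limits genes near 3 counts, for which only bounds or wide counting intervals are given.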
